A study of Mus musculus with 8 samples.

Results

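The colony-stimulating factors and interleukins described here are 10 secreted signalling proteins whose transcripts were measured in 4T1 cells: the colony-stimulating factors Csf1, Csf2 and Csf3, the interleukin-6 family members Il6, Lif and Il11, the interleukin-1 family members Il1a, Il1rn and Il33, and Tslp. They were chosen by name with earlier results of these data known, and all 10 were found in the deposited table of 20189 genes. 4T1 is a wild-type mouse mammary carcinoma line that seeds lung metastases. Cells were kept in culture for 48 h with 5 mM acetate or with the vehicle, water, and poly-A RNA was sequenced from 4 libraries per group, 8 in all. The study used acetate to raise the supply of acetyl-CoA in the cells and asked how transcription answered. The 4 replicate numbers each stand for 1 acetate and 1 vehicle library with a common experiment code, and these were compared as pairs. All libraries came from 1 cell line in culture, without stroma or immune cells, so the values describe what the carcinoma cells transcribed and not what a tumour contained.

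Colony-stimulating factors instruct bone marrow and tissue myeloid cells: CSF-1 (M-CSF) keeps macrophages alive, CSF-2 (GM-CSF) serves macrophages, dendritic cells and granulocytes, and CSF-3 (G-CSF) releases neutrophils from the marrow. 4T1 tumours are known for the large expansion of granulocytes that they cause in the host. The interleukin-6 family signals through the shared receptor chain gp130 (Il6st) to the kinases JAK1 and JAK2 and to STAT3, whereas the interleukin-1 family signals through MyD88 to NF-kB, and TSLP signals through the receptor chain Crlf2 together with the interleukin-7 receptor to STAT5. Most of these mRNAs are made on demand and are short-lived, since AU-rich elements after their coding sequence bind proteins that speed their decay.

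Tslp, Il1a and Csf1 were higher in acetate-treated cells, by 1.44-fold, 1.22-fold and 1.13-fold, and no member was lower past the threshold. Values are given in units of the authors' normalised signal, in which each library sums to 20000000 units and 1 unit stands for about 1 read. A gene was taken as changed when its adjusted p fell under 0.05 in a limma fit of log2(units + 1) to all 20189 genes, with the replicate number as a block and Benjamini-Hochberg adjustment. By this rule 3 of the 10 members rose and 7 did not pass, against 5.99% of all genes that rose and 2.65% that fell (1209 and 535 genes). With libraries scaled by the median of ratios, 1000 genes rose and 821 fell. These shares cover all genes, also those with few reads. When only genes with a mean above 10 units were fitted, 1489 genes rose, 774 fell and 4 members rose. The median log2 change was 0.24 over the 10 members and 0.02 over all genes. The member median includes the largest changes, those of Il1rn, Il6 and Il33 (1.19, 1.03 and 0.92). These rest on few reads and did not pass. Acetate was higher than vehicle in all 4 pairs for 5 members, Csf1, Il6, Il1a, Il1rn and Tslp, of which Il6 and Il1rn had few reads. It was lower in all 4 pairs for 0 members. Over all genes, 16.7% were higher and 11.4% lower in every pair. Without the block 0 members passed, as did 0% of all genes, and none of the 10 members had an unadjusted p under 0.05 there (353 of all genes did). In these bulk libraries, a change in the number of cells that express a gene and a change in its RNA per cell cannot be told apart.

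The recovered reads per library ran from 19.9 to 29.3 M (M, mega). Epithelial identity was clear, since all 8 listed carcinoma epithelium markers (such as Epcam, Cdh1 and Krt8) were present, and their summed level ran from 60458 to 82691 units in vehicle and from 65984 to 84985 units in acetate. Of these 8 markers 3 rose, Krt19 (log2 change 0.40, adjusted p = 2.54e-04, limma), Cldn4 (0.30, 3.19e-04) and Cdh1 (0.15, 0.00592). Of 10 macrophage and dendritic cell markers 6 were in the table, and 1 of them, Csf1r, rose. Their sum ran from 293 to 547 units in vehicle and from 317 to 606 units in acetate and came mostly from Cd14 and Cd68, whereas the leukocyte marker Ptprc was at 1.90 ± 0.99 (SD, n = 4) and 2.62 ± 0.27 units, and Lyz2 was at 0 in both libraries of replicate 1. Of 8 lymphocyte markers 1 was in the table, at 4.85 units at most. Fibroblast markers summed to 233 to 1523 units in vehicle and 396 to 1998 units in acetate, nearly all of it Pdgfra, which rose (log2 change 0.52, adjusted p = 3.72e-04, limma). The scarcer Pdgfrb rose too, from 10.1 ± 8.76 to 23.3 ± 13.8 units (1.403 on the log2 scale, adjusted p = 0.0119), and 3 of 5 endothelial markers summed to at most 18.8 units. Whether these markers bear on the members was not tested.

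The genes lie at separate loci of build GRCm38 (spans from GENCODE M21, all protein coding). Csf1 (ENSMUSG00000014599) lies at chr3:107741048-107760469 on the minus strand. On chromosome 11 lie Lif (ENSMUSG00000034394) at 4257557 to 4272514 on the plus strand, Csf2 (ENSMUSG00000018916) at 54247271 to 54249667 on the minus strand and Csf3 (ENSMUSG00000038067) at 98701263 to 98703629 on the plus strand. Chromosome 2 holds Il1rn (ENSMUSG00000026981) at 24336853 to 24351494 on the plus strand and Il1a (ENSMUSG00000027399) at 129299610 to 129309972 on the minus strand. Il6 (ENSMUSG00000025746) lies at chr5:30013114-30019981 on the plus strand, Il11 (ENSMUSG00000004371) at chr7:4772373-4782859 on the minus strand and Il33 (ENSMUSG00000024810) at chr19:29925114-29960718 on the plus strand. Tslp (ENSMUSG00000024379) is read from the plus strand, and its sequence is not shown. Csf2, Il1a and Tslp each share their span with a gene on the opposite strand, and since it is not stated whether counting used strand, reads from such partners could not be told apart. The partners of Csf2 and Il1a, Gm12223 and Gm14023, were at 0 to 11.3 and 0.76 to 3.02 units, and the partner of Tslp was not analysed here.

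The bases before the start sites of Il1a and Csf1, which rose, and of Lif, which did not pass, show what kinds of short motif these promoters hold. Each is 250 bases of build GRCm38.p6 (RefSeq start sites), on the strand of the gene and ending at the base before the start site. Il1a is read from chr2:129309973-129310222 (minus strand), with the TATA box TATAAA and the AP-1 motif in capitals. Csf1 is read from chr3:107760470-107760719 (minus strand), with the NF-kB motif in capitals. Lif is read from chr11:4257318-4257567 (plus strand), with the AP-1 motif in capitals.
Il1a: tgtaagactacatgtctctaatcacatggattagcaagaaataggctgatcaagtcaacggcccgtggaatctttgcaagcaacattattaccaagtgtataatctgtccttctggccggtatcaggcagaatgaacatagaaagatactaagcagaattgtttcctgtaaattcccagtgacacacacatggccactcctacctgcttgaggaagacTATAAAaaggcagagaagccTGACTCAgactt
Csf1: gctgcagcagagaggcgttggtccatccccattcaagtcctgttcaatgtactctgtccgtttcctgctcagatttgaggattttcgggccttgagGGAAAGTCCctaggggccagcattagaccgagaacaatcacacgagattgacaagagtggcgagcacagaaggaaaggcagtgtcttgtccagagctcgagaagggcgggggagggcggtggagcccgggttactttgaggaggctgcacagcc
Lif: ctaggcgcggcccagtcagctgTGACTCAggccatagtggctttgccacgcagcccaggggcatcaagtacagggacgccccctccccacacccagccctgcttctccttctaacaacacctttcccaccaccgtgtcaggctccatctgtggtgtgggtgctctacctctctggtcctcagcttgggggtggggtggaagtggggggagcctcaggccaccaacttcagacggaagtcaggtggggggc

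In Il1a the TATA box began 32 bases and TGACTCA 12 bases before the start site, in Csf1 GGAAAGTCC began 154 bases before it, and in Lif TGACTCA began 228 bases before it. Promoter windows of 300 bases (250 before to 50 after a start site) were on hand for 8 members, 12 windows in all, and Csf3 and Tslp had none that was searched. The AP-1 motif (TGANTCA, both strands) was found in 5 of the 12 windows, those of Il1rn, Il1a, Il6, Il11 and Lif. It was found in 7.81% of 32851 promoter windows of mouse genes. The NF-kB motif (GGNNTTTCC, both strands) was found in 5 of the 12 windows, for 4 members, Il1rn, Csf1, Il6 and Csf2. Overlapping windows of Il1rn held the same site, and 5.82% of all windows held a match. The C/EBP motif (TTGCNNAA, both strands) was found in 3 of the 12 windows, for Il6, Csf2 and Il33, and in 10.8% of all windows. The TATA box (TATAAA, the gene's strand only) was found in 3 of the 12 windows, for Il1a and Il33, and in 8.32% of all windows. The CRE motif (TGACGTCA, both strands), found in 1.79% of all windows, was in none of the 12. The AP-1 motif thus stood before Il1a, which rose, and before Lif, Il6, Il11 and Il1rn, which did not pass. A match is a stretch of letters, and whether a factor binds there was not measured.

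The AU-rich pentamer ATTTA was counted in the region after the coding sequence (3' untranslated region) of each member's principal transcript, because it marks mRNAs that are quickly degraded. Over 12972 coding genes the median was 1.30 pentamers per kb, and 7.6% of genes held the longer form TTATTTATT. The stretches in which pentamers lie closest together are shown for the members with at least 5 pentamers and for Il1a, with each ATTTA in capitals.
Csf2: ATTTATTTATTTATTTATTTA
Csf3: ATTTAtctctATTTAatATTTA
Il6: ATTTAttgataATTTA
Lif: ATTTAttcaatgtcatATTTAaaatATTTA
Il11: ATTTATTTATTTA
Il1a: ATTTAtaaatatATTTA

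Csf2 was the densest member, with 9 pentamers in 317 bases (28.4 per kb) and 4 copies of the longer form. Il6 held 6 pentamers in 427 bases (14.1 per kb), Csf3 held 6 in 669 bases (8.97 per kb) and Il11 held 10 in 1194 bases (8.38 per kb) with 5 copies of the longer form. Of the members that rose, Csf1 held 4 in 2111 bases (1.90 per kb), Il1a 3 in 1101 bases (2.73 per kb) and Tslp 2 in 686 bases (2.92 per kb), none of them with the longer form, while Lif held 7 in 3180 bases (2.20 per kb) with 2 copies of it. Il33 held 3 in 1677 bases (1.79 per kb) and Il1rn held 0 in 1864 bases. Among the members that did not pass were the densest, Csf2, and those with the fewest pentamers per kb, Il33 and Il1rn, and nothing is read from the density about the change.

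Per kb of exon, so that genes can be compared, Csf3 stood at the top of the members in vehicle, with a level of 2599 ± 478 units per kb (SD, n = 4). It was followed by Il1a (1253 ± 220 units per kb), Tslp (1111 ± 483), Lif (746 ± 97.3) and Csf1 (666 ± 179). Each of these ranges overlapped that of its neighbour over the 8 libraries. A gap then separated Csf1 from Csf2, at 83.9 ± 51.1 units per kb, and Il11, at 55.2 ± 23.4. A further gap separated Il11 from Il33 (5.28 ± 3.44 units per kb), and Il6 (1.25 ± 0.88) and Il1rn (0.48 ± 0.47) were close to the detection limit. 4T1 cells thus transcribed G-CSF, interleukin-1 alpha, TSLP, LIF and M-CSF at high levels, GM-CSF and interleukin-11 at low levels, and interleukin-6 hardly at all.

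**Figure D1:**
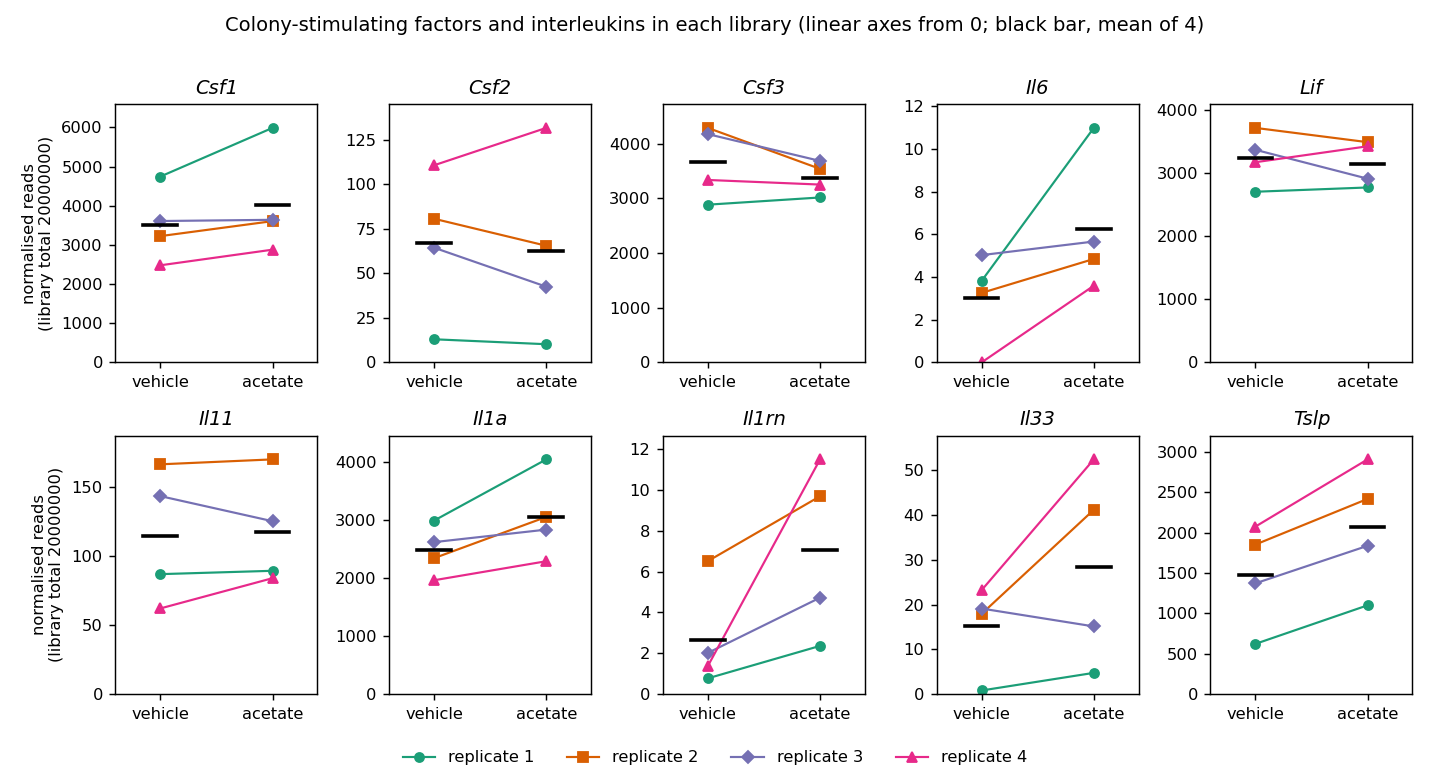
Level of each member in the 8 libraries, as normalised reads (units, library total 20000000) on linear axes that start at 0. Lines join the vehicle and the acetate library of 1 replicate number and black bars are the means of 4 libraries; the lines of Tslp, Il1a and Csf1 all rise from vehicle to acetate, while the distance between lines is larger than their rise.

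Among the colony-stimulating factors, Csf1, the growth factor of macrophages, was the member that rose. In vehicle replicates 1 to 4 it was at 4745, 3225, 3610 and 2479 units, and in acetate replicates 1 to 4 at 5988, 3607, 3641 and 2879 units. Replicate 1 was the highest and replicate 4 the lowest library in both groups, and the groups overlapped. Csf1 rose in every pair, by a log2 change of 0.34, 0.16, 0.01 and 0.22 in pairs 1 to 4, which gave 0.18 ± 0.04 (SE, 4 pairs) and an adjusted p of 0.0238 (limma). Pair 3 was nearly flat. The adjusted p passed 0.05 when pair 1, 2 or 4 was left out (0.0721, 0.101 and 0.169), so the call rests on having all of these pairs.

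Csf3, which encodes G-CSF, was the most abundant member per kb and tended the other way without passing the test. It was at 2886, 4291, 4177 and 3338 units in vehicle and at 3018, 3541, 3686 and 3254 units in acetate. The vehicle libraries of replicates 2 and 3 were the highest of all 8, and the groups overlapped. The log2 change was -0.11 ± 0.05 (SE; adjusted p = 0.199, limma), with pair 1 at 0.06 and the other three pairs from -0.28 to -0.04. It passed as lower without pair 1 (-0.16, adjusted p = 0.0364) and in edgeR on the recovered reads (-0.13, adjusted p = 0.0468), and did not in DESeq2 (adjusted p = 0.118).

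Csf2, which encodes GM-CSF, varied most between replicate numbers among the members that were well above the detection limit. It was at 12.98, 80.6, 64.3 and 111 units in vehicle and at 10.2, 65.4, 42.5 and 132 units in acetate. Both libraries of replicate 1 were far below the others, with 17 and 13 reads, and both libraries of replicate 4 were the highest, an 8.52-fold range within vehicle. Pairs 1, 2 and 3 were lower in acetate (-0.32, -0.30 and -0.59) and pair 4 was higher (0.25), so the log2 change of -0.24 ± 0.16 did not pass (adjusted p = 0.419, limma).

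In the interleukin-6 family, Lif, which encodes leukaemia inhibitory factor, was abundant and no difference was detectable. It was at 2710, 3723, 3376 and 3178 units in vehicle and at 2777, 3497, 2917 and 3431 units in acetate. The ranges lay on top of each other, pairs 1 and 4 were higher and pairs 2 and 3 lower in acetate. The log2 change was -0.04 ± 0.04 (SE; adjusted p = 0.682, limma), and it turned to 0.02 without pair 3.

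Il11, whose product signals through gp130 as well, was at 87.0, 167, 144 and 62.1 units in vehicle and at 89.5, 170, 126 and 84.1 units in acetate. Replicates 2 and 3 were higher than replicates 1 and 4 in both groups, and the groups overlapped. The log2 change was 0.08 ± 0.11 (adjusted p = 0.753, limma). It turned to -0.04 without pair 4 and to -0.02 with quantile scaling, so no direction can be given.

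Il6 itself was near the detection limit, with 5, 4, 5 and 0 reads in vehicle and 14, 6, 6 and 5 reads in acetate. In units these were 3.82, 3.26, 5.03 and 0 against 10.99, 4.85, 5.66 and 3.59, and 0 reads in vehicle replicate 4 allow up to 2.05 units (3 reads). Acetate was higher in each of the 4 pairs, although the groups overlapped. The log2 change of 1.03 ± 0.39 did not pass (adjusted p = 0.139, limma), and it depended on the pseudocount, at 1.86 with 0.1 and 0.50 with 5. Summed over libraries, 14 reads in vehicle stood against 31 in acetate, a ratio of units of 2.23 with a 95% exact interval of 1.15 to 4.54, which covers counting error only.

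Tslp and Il1a made the clearest rises. Il1a encodes interleukin-1 alpha, a cytokine held in the cell until damage or cleavage releases it. It was at 2984, 2337, 2614 and 1957 units in vehicle and at 4039, 3048, 2829 and 2285 units in acetate. Replicate 1 was the highest and replicate 4 the lowest library of both groups, and 2 acetate libraries exceeded every vehicle library. The log2 change was 0.44, 0.38, 0.11 and 0.22 in pairs 1 to 4, or 0.29 ± 0.05 (SE), a rise of 1.22-fold (adjusted p = 0.00352, limma). With any 1 pair left out the adjusted p stayed between 0.00879 and 0.048, and the treatment held 23.5% of the variance of Il1a over the 8 libraries, the largest share among the 7 members above 64 units.

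Tslp encodes thymic stromal lymphopoietin, an epithelial cytokine that acts on dendritic cells and other leukocytes. It was at 620, 1851, 1370 and 2073 units in vehicle and at 1098, 2417, 1836 and 2907 units in acetate. Replicate 1 was the lowest and replicate 4 the highest library of both groups, the reverse of Il1a and Csf1, and the groups overlapped. The log2 change was 0.82, 0.38, 0.42 and 0.49 in pairs 1 to 4, or 0.53 ± 0.06 (SE), a rise of 1.44-fold (adjusted p = 5.34e-04, limma). With any 1 pair left out it was between 0.43 and 0.58, with adjusted p from 1.04e-04 to 0.0273. Tslp and Il1a passed under every setting tried that kept the replicate block.

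The other members of the interleukin-1 family were scarce. Il33 encodes an alarmin kept in the nucleus, and it had 1, 22, 19 and 34 reads in vehicle and 6, 51, 16 and 73 reads in acetate, or 0.76, 17.9, 19.1 and 23.2 against 4.71, 41.2, 15.1 and 52.5 units. Acetate was higher in pairs 1, 2 and 4, by 1.69, 1.16 and 1.14 on the log2 scale, and lower in pair 3, by -0.32. The overall log2 change of 0.92 ± 0.31 did not pass (adjusted p = 0.101, limma). It passed in edgeR on the recovered reads (adjusted p = 0.0151) and narrowly among genes with a mean above 10 units (adjusted p = 0.0495), but not in DESeq2 (adjusted p = 0.183). Summed reads were 76 in vehicle and 146 in acetate, a ratio of units of 1.94 (95% exact interval 1.46 to 2.59, counting error only).

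Il1rn encodes the receptor antagonist that blocks interleukin-1. It had 1, 8, 2 and 2 reads in vehicle and 3, 12, 5 and 16 reads in acetate, or 0.76, 6.51, 2.01 and 1.36 against 2.35, 9.69, 4.72 and 11.5 units. Every pair was higher in acetate, while the groups overlapped and replicate 4 moved most (2.40 on the log2 scale). The log2 change of 1.19 ± 0.37 did not pass (adjusted p = 0.0771, limma), and the summed reads of 13 and 36 gave a ratio of units of 2.79 (95% exact interval 1.44 to 5.73, counting error only). The antagonist was thus measured at the lowest level per kb of the 10 members, although its range overlapped that of Il6. An agonist, Il1a, ranked second.

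**Figure D2:**
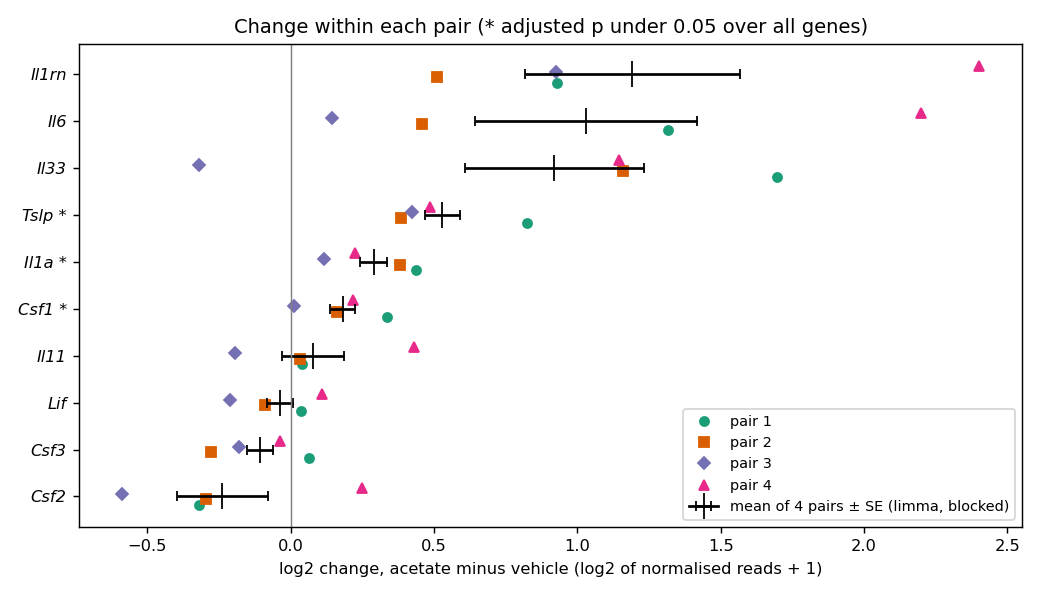
Log2 change from vehicle to acetate of each member, with 1 symbol per pair and the mean of 4 pairs ± SE from the blocked limma fit in black; the x axis is the difference of log2(units + 1). Tslp, Il1a and Csf1 (starred) have short error bars to the right of 0, whereas the larger mean changes of Il1rn, Il6 and Il33 have wide bars and Csf2, Csf3 and Lif lie left of 0.

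The replicate number carried most of the spread of the members. Its share of the variance of log2(units + 1) over the 8 libraries was 97.6% for Csf2, 94.2% for Il11, 91.7% for Csf1, 84.2% for Il33, 83.2% for Lif, 82.4% for Tslp, 80.6% for Csf3 and 71.9% for Il1a. For Il6 and Il1rn, which rest on few reads, it was 53.5% and 48.8%. Over the 10840 genes with a mean above 64 units the median share was 92.2% for the replicate number and 2.68% for the treatment. The treatment held 15.9% for Tslp, 5.9% for Csf1 and 7.8% for Csf3, and 0.61% to 1.53% for Il11, Csf2 and Lif. The replicate numbers differed in opposite ways, since 6 members were lowest in replicate 1 of both groups and 2, Csf1 and Il1a, were highest there.

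**Figure D3:**
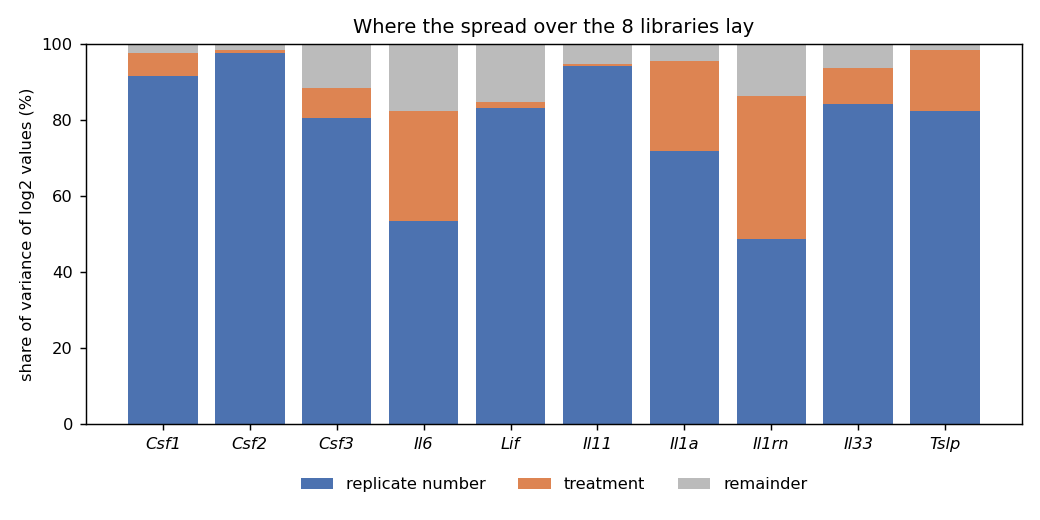
Share (%) of the variance of log2(units + 1) over the 8 libraries that went with the replicate number, the treatment and the remainder, stacked to 100 for each member. Replicate number is the largest share for all 10 members, from 48.8% in Il1rn to 97.6% in Csf2, and the treatment share is largest for Il1rn, Il6 and Il1a.

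Among the 7 members above 64 units, Csf1 and Il1a went together over the 8 libraries (Pearson r of log2 values 0.95), as did Csf2 with Tslp (0.85) and Csf2 with Lif (0.82). Csf1 ran against Csf2 (-0.95) and against Tslp (-0.73), and Il1a against Csf2 (-0.85). The 8 libraries share 4 replicate numbers, which set most of these values. Among all genes above 64 units, those most like Tslp were Plekhg5, Itgb5 and Tmem173 (0.99 each), and those most like Il1a were Slc15a4 (0.98), Sorbs2 (0.98) and H2afy (0.97). Noct, Igf2bp1 and Pmpca were most like Csf1 (0.99 each), and Zfp532, Dennd6a and Nek9 were most like Csf2 (1.00 each after rounding). D6Wsu163e, Dpf2 and Tmx3 were most like Csf3 (0.97 to 0.98), Ipo9, Ascc2 and Tial1 were most like Il11 (0.97 to 0.98), and Tbk1, Gm14303 and Rbak were most like Lif (0.94 to 0.96).

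Receptors of the members and related receptor chains were also transcribed by the carcinoma cells. Of 18 listed receptor genes 12 were in the table, 5 of them rose (Csf1r, Lifr, Osmr, Il1r1 and Il6ra) and 1 fell (Sigirr). Osmr, a chain for oncostatin M, and Sigirr, which restrains interleukin-1 signalling, are related genes and not receptors of a member. The split varied with the settings. Among genes with a mean above 10 units 6 rose and 2 fell, and in edgeR 5 and 2. It was 4 and 2 with median-of-ratios scaling, and 3 and 2 with quantile scaling and in DESeq2. The median log2 change of the 12 was 0.22, against 0.02 over all genes, and the background was 5.99% of genes rising and 2.65% falling. The count depends on the pairs: it was 2, 1 and 1 when pair 2, 3 or 4 was left out, and 0 without the block. The receptor chains for GM-CSF (Csf2ra, Csf2rb, Csf2rb2), G-CSF (Csf3r) and interleukin-7 (Il7r) and Il11ra2 were not in the table. It kept genes seen in at least 4 libraries.

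Csf1r, the receptor of CSF-1, had few reads but separated the groups. It was at 13.7, 17.9, 11.1 and 9.55 units in vehicle and at 31.4, 35.5, 21.7 and 25.2 units in acetate. Every acetate library was above every vehicle library, and the log2 change was 1.08 ± 0.20 (SE; adjusted p = 0.00774, limma), or 1.00 without pair 4 (adjusted p = 0.0671). Csf1r is also a macrophage marker, and the only 1 of the 6 such markers in the table that passed. Cd14 was higher in all 4 pairs without passing (log2 change 0.23, adjusted p = 0.093, limma). Cd68 (0.02), Ptprc (0.39) and Lyz2 (0.22) did not pass, and Aif1 was lower without passing (-0.43, adjusted p = 0.601).

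Among the gp130 receptors, Lifr, the LIF receptor, was at 26.0, 130, 114 and 130 units in vehicle and at 35.3, 173, 135 and 171 units in acetate. Both libraries of replicate 1 were far below the others, and the change was 0.37 ± 0.09 (adjusted p = 0.0333, limma). The call of Lifr was lost with quantile scaling (0.29, adjusted p = 0.0912), in DESeq2 (adjusted p = 0.17) and without pair 2, 3 or 4 (adjusted p = 0.167, 0.104 and 0.158). Osmr, the receptor chain of oncostatin M, was at 506 ± 271 units in vehicle and 629 ± 322 units in acetate (SD, n = 4). This is 0.36 ± 0.06 on the log2 scale (adjusted p = 0.00378, limma), a call lost without pair 3 or 4 (adjusted p = 0.0536 and 0.0614). Il6ra had a log2 change of 0.19 ± 0.05 (adjusted p = 0.0476). The shared chain Il6st itself was at 4010 ± 353 and 4056 ± 392 units, with a log2 change of 0.02 (adjusted p = 0.795).

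For the interleukin-1 family, Il1r1, the signalling receptor of interleukin-1 alpha, was at 211, 662, 623 and 843 units in vehicle and at 239, 822, 722 and 1021 units in acetate. All 4 pairs were higher, and the change was 0.24 ± 0.04 (adjusted p = 0.00591, limma). The call of Il1r1 was lost without pair 2, 3 or 4 (adjusted p = 0.0597, 0.055 and 0.0657). Sigirr, a receptor that restrains interleukin-1 signalling, was at 1761 ± 180 units in vehicle and 1594 ± 173 units in acetate. This is -0.15 ± 0.04 on the log2 scale (adjusted p = 0.0304, limma), and Sigirr was lower in all 4 pairs. Its call was lost without pair 1, 2 or 3 (adjusted p = 0.0783, 0.1335 and 0.196) and in edgeR on replicates 1, 2 and 4 (0.064). Crlf2, the specific chain of the TSLP receptor, was at 91.6, 121, 216 and 162 units in vehicle and at 91.0, 99.3, 116 and 105 units in acetate. It was lower in all 4 pairs but nearly level in pair 1, and just missed the threshold (log2 change -0.45 ± 0.13, adjusted p = 0.053, limma). Besides Sigirr it was the only listed receptor with a negative change. In edgeR and in DESeq2, among other settings with the block, 2 listed receptors passed as lower.

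Of 23 listed genes of JAK-STAT and interleukin-1 receptor signalling, 22 were in the table, 5 rose (Cish, Stat5a, Stat3, Jak2 and Myd88) and 0 fell, against 5.99% of all genes rising and 2.65% falling. Their median log2 change was 0.10, and that of all genes 0.02. Stat3, the main transcription factor below gp130, was at 1271, 1703, 1576 and 2088 units in vehicle and at 1448, 2170, 1944 and 2724 units in acetate. It rose in every pair, with a log2 change of 0.31 ± 0.04 (SE; adjusted p = 7.27e-04, limma). Stat5a, a transcription factor used by TSLP and GM-CSF, was at 359 ± 178 units in vehicle and 467 ± 205 units in acetate (0.42 ± 0.06, adjusted p = 0.00182), and Cish, a feedback inhibitor that STAT5 induces, was at 150 ± 56.1 and 210 ± 88.9 units (0.44 ± 0.08, adjusted p = 0.00709). Jak2 had a log2 change of 0.27 ± 0.04 (adjusted p = 0.00401), and Myd88, the adaptor of the interleukin-1 receptors, of 0.16 ± 0.04 (adjusted p = 0.0394). Socs3, a feedback inhibitor that STAT3 induces, was at 443 ± 158 and 492 ± 178 units and did not pass (log2 change 0.14, adjusted p = 0.12). The count of 5 fell to 2 without pair 3 or pair 4.

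Of 23 transcription factors and mRNA decay proteins that act on cytokine genes, all were in the table, 1 rose and 1 fell, which is close to the background of 5.99% of all genes rising and 2.65% falling and is no result about the list. The median log2 change was -0.0006, and that of all genes 0.02. Zfp36l1, which binds AU-rich elements and speeds mRNA decay, was at 1927, 1609, 1685 and 1921 units in vehicle and at 2503, 2224, 1885 and 2220 units in acetate. It was higher in every pair (0.30 ± 0.05, adjusted p = 0.0027, limma), with 1 acetate library, replicate 3, within the vehicle range. Relb, an NF-kB subunit, was at 565 ± 152 units in vehicle and 465 ± 90.4 units in acetate (-0.26 ± 0.06, adjusted p = 0.0187) and was lower in every pair. The count was 4 in edgeR on recovered reads and 1 when pair 2 or 3 was left out.

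Of 13 genes for maturation and release of interleukin-1 family proteins, 12 were in the table, 2 rose and 1 fell, against 5.99% of all genes rising and 2.65% falling, with a median log2 change of 0.14 (0.02 over all genes). Capn2, a calpain subunit of the protease type that cleaves pro-interleukin-1 alpha, was at 4317 ± 281 units in vehicle and 4734 ± 404 units in acetate (0.13 ± 0.03, adjusted p = 0.0184, limma). S100a13, a partner in non-classical release of interleukin-1 alpha, was at 162 ± 48.0 and 194 ± 45.7 units (0.28 ± 0.07, adjusted p = 0.0396). S100a13 lost this call with a pseudocount of 5, with median-of-ratios scaling (adjusted p = 0.0529), with quantile scaling (0.102), in DESeq2 (0.223) and without any 1 of the pairs (0.097 to 0.151). Hax1, a protein that binds interleukin-1 alpha in the cell, was at 1420 ± 295 and 1211 ± 256 units (-0.23 ± 0.05, adjusted p = 0.0232). The count was 0 when pair 2, 3 or 4 was left out and 1 in DESeq2, where Capn2 was lost as well (adjusted p = 0.0683).

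Of 43 other interleukins and haematopoietic growth factors, 18 were in the table, 0 rose and 2 fell, against 5.99% of all genes rising and 2.65% falling, with a median log2 change of -0.01 (0.02 over all genes). Clcf1, a further gp130 cytokine, was at 1435, 1258, 1343 and 842 units in vehicle and at 1289, 1112, 1020 and 732 units in acetate. It was lower in every pair (-0.23 ± 0.04, adjusted p = 0.00748, limma). Il24 was at 1251, 256, 317 and 212 units in vehicle and at 1081, 229, 275 and 177 units in acetate, so replicate 1 stood far above the rest in both groups, and it too was lower in every pair (-0.21 ± 0.05, adjusted p = 0.0243). Il1b, the other main interleukin-1 agonist, was scarce, at 22.8 ± 12.2 units in vehicle and 18.5 ± 8.75 units in acetate (log2 change -0.22, adjusted p = 0.625). The count was 0 without pair 3 or 4, 1 without pair 2 and 1 in DESeq2, where Il24 was lost (adjusted p = 0.0622).

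**Figure D4:**
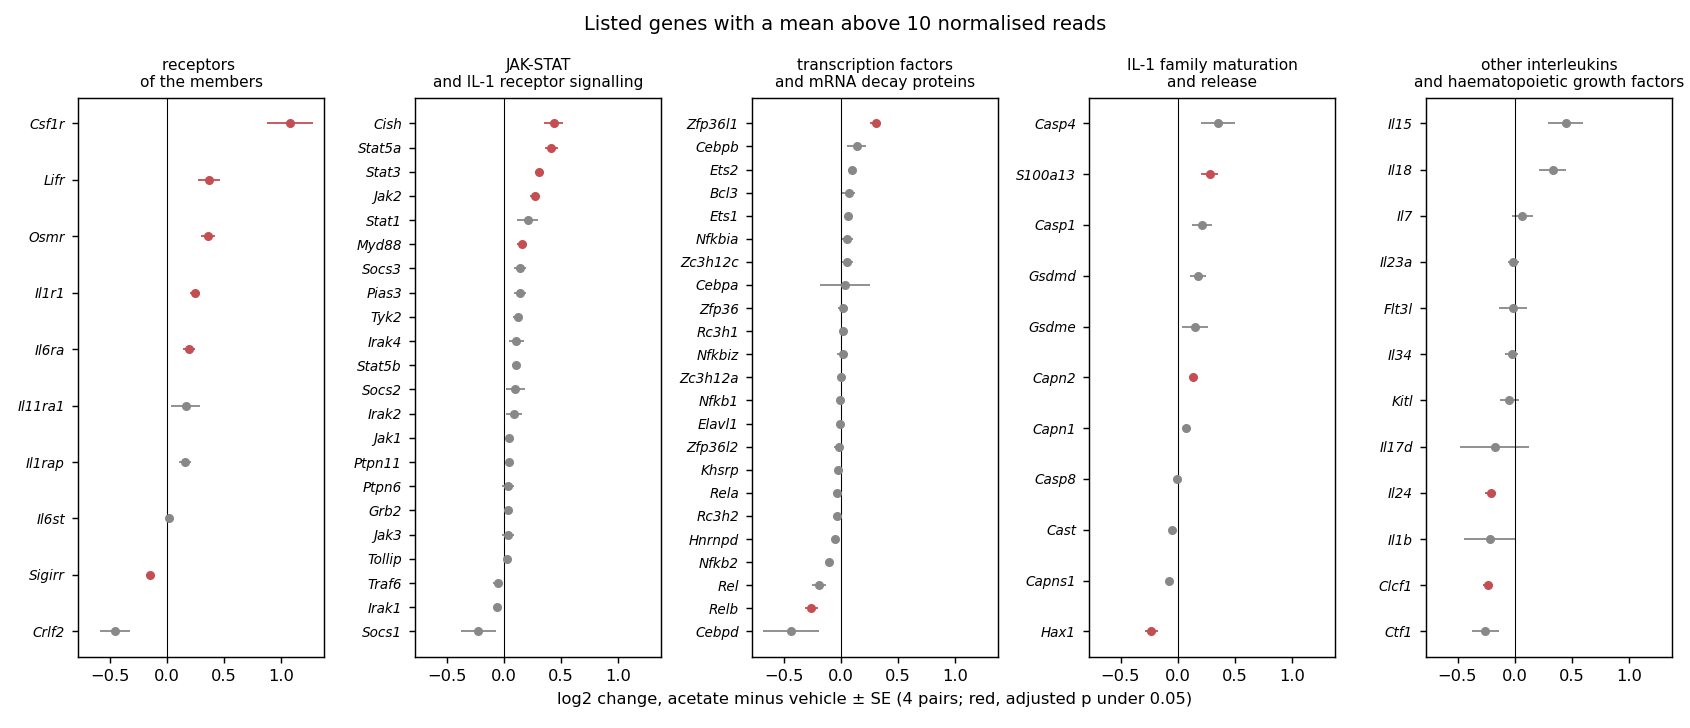
Log2 change from vehicle to acetate (± SE, 4 pairs, blocked limma fit) of the listed receptors, signalling genes, transcription factors and decay proteins, maturation genes and other interleukins with a mean above 10 units. Red points passed an adjusted p of 0.05; Csf1r lies farthest to the right at 1.08, most points of the third panel sit near 0, and the only red points of the last panel, Clcf1 and Il24, lie left of 0.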

How the data were processed

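RNA of 4T1 cells (4 vehicle and 4 acetate libraries) was sequenced by the authors from stranded poly-A libraries, aligned to mouse GRCm38 and counted per gene with STAR (the submitters' processing notes also name HTSeq). Deposited is a normalised signal, for which the authors scaled reads to the library total and kept genes seen in at least 4 libraries. All values were whole multiples of 1 read's worth (100% within 0.01), which gave back 19.9 to 29.3 M reads per library.

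limma 3.58.1 (R 4.3.3, trend, two-sided) was fitted to log2(value + 1) of all 20189 genes with a replicate block and adjusted by Benjamini-Hochberg. This scale understates changes of low genes. Same-numbered libraries share a code and deviated together (correlations 0.814, 0.273, 0.201 and 0.691 over 18188 genes). The study counts them as independent experiments. Scripts were tested on simulated data. Alternatives were no block, pseudocounts of 0.1 and 5, a mean above 10 units, median-of-ratios and quantile scaling, edgeR 4.0.16 and DESeq2 1.42.0 on recovered reads, and leaving out each pair.

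Members and gene lists were chosen with earlier results of these data known. From each list, up to 4 genes that rose and 4 that fell most (mean above 10 units) were named. Il6ra, Myd88, Il6st, Crlf2, Socs3, Il1b and single markers were added after their values were seen. Genes most like a member had the 3 highest Pearson r among genes above 64 units. Motifs were matched by exact letters.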

Additional observations from a re-analysis of the deposited data

Results flagged for a closer look

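In groups of 4 libraries, a library whose gap to the nearest other, divided by the range of the group, passed Dixon's 95% critical value was set apart. Among 52 groups (26 genes in 2 treatments) 3 were set apart, all in replicate 1, where chance gives about 2.6. Lifr was low in vehicle replicate 1 (26.0 units against 114 to 130), with a gap of 0.841 of the range. Il24 was high in vehicle replicate 1 (1251 units against 212 to 317), with a gap of 0.899, and in acetate replicate 1 (1081 units against 177 to 275), with a gap of 0.892. No group of a member was set apart by this rule.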

How the results depend on the processing

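The replicate block decided the calls. Without the block, limma called 0 members, 0 genes of all 20189 (353 at an unadjusted p under 0.05), 0 receptors, 0 signalling genes, 0 transcription factors and decay proteins, 0 maturation genes and 0 other interleukins, while changes kept their size. With it, edgeR called 5 members (Csf3 and Il33 added to the 3) and 4 transcription factors and decay proteins, and DESeq2 called 1126 of all genes, 1 maturation gene and 1 other interleukin. Leaving out 1 pair at a time, counts ran from 2 to 3 for the members, 409 to 1662 for all genes, 1 to 6 for receptors, 2 to 4 for signalling, 1 to 3 for transcription factors and decay proteins, 0 to 2 for maturation and 0 to 2 for other interleukins. The lowest count over all genes came without pair 3. Over the same leave-outs Lif ran from -0.0885 to 0.0185 and Il11 from -0.0415 to 0.167 on the log2 scale, and quantile scaling gave Il11 -0.0183. No other of the 26 genes followed turned direction. The edgeR fit on replicates 1, 2 and 4 was added after seeing the data, since 1 read in vehicle replicate 3 is worth close to 1 unit, and called 4 members, with Il33 at 1.21 (adjusted p = 0.00416). Adjusted p in DESeq2 was not given for Il6 and Il1rn. For these genes and Il33 depth limits what can be said, as 13 to 146 reads per group stand behind each value. The causes of these dependences were not tested.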
